A study of Mus musculus with 5 samples.

Results

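The circadian clock genes described here are *Arntl*, *Clock*, *Npas2*, *Per1*, *Per2*, *Per3*, *Nr1d1*, *Nr1d2*, *Dbp* and *Tef*. They were picked by symbol, with earlier results of these data known, and all 10 were present among the 23361 genes of every library. All 10 also passed the filter of a mean FPKM (sequenced fragments scaled to transcript length and library size) of 1 or more, which left 12740 genes for testing. The RNA came from the hippocampus of mice 3 months old. Control mice carried the floxed allele without Cre (*Hdac1* f/f, n = 2), and *Hdac1* cKO mice carried the same floxed allele with *Nestin-Cre* (n = 3). The *Nestin* promoter drives Cre in neural progenitors, so that neurons and astrocytes lose *Hdac1* while microglia keep it. No library came from mice with *Nestin-Cre* alone, so effects of the transgene and of the deletion cannot be told apart.

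The circadian clock is a transcriptional feedback loop that runs in most cells, the hippocampus included. The activators ARNTL (BMAL1) and CLOCK, or its brain paralog NPAS2, form dimers that bind E-boxes and switch on the Period genes, the *Nr1d* genes and the PAR bZIP genes *Dbp* and *Tef*. PERIOD proteins then repress the dimer, REV-ERB proteins encoded by *Nr1d1* and *Nr1d2* repress *Arntl* and *Npas2*, and DBP and TEF act on D-boxes of further genes. Through the day *Arntl* and *Npas2* therefore peak roughly opposite to *Dbp*, *Nr1d1* and the Period genes. Histone deacetylases work in this loop as partners of the repressors. Mice were kept under a light/dark cycle and experiments were performed in the light phase, but the hour at which each mouse was taken is not given in the sources used here.

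The deleted gene was lower in every *Hdac1* cKO library. *Hdac1* measured 8.95 and 13.1 FPKM in control and 1.95, 3.12 and 3.37 FPKM in *Hdac1* cKO, a log2 fold change of −1.66 (SE 0.21, limma adjusted p = 0.219). Steps in the low FPKM values gave estimates of 5140000 to 6770000 fragments per library, with *Hdac1* cKO 2 the lowest. The same steps divided the libraries into set 1 (control 1 and *Hdac1* cKO 1) and set 2 (control 2, *Hdac1* cKO 2 and *Hdac1* cKO 3). Ratios of low genes fell into one narrow window for 24.6% to 28.4% of genes within a set and for 3.71% to 4.64% across sets. Because both sets hold both genotypes, differences are also given within each set, without a p-value. Nothing in the labels says what the sets are.

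None of the 10 clock genes differed between *Hdac1* cKO and control at an adjusted p of 0.05. By limma, 1 of the 10 had an unadjusted p under 0.05 (*Per1*, lower in *Hdac1* cKO), beside 4.36% of all tested genes. The count at an adjusted p of 0.05 was 0, beside 0.00785% of all tested genes. At the study's threshold, a fold change of 1.5 with p under 0.05, the count was also 0, beside 0.659% of all tested genes. That background is 84 genes, of which 60.7% were higher in *Hdac1* cKO, or 41.1% of 124 genes after rescaling to a common total. Log2 fold changes of the clock genes ran from −0.33 for *Per1* to 0.10 for *Per2*, with a median of −0.0019, where the median of all tested genes was 0.01. In 5 of the genes the fold change was above 0 and in 5 below. Every *Hdac1* cKO library lay below both controls for 2 members, *Per1* and *Npas2* (9.41% of all tested genes did so), and above both controls for 1, *Tef* (11.0% of all tested genes). In a list of 10, each of these backgrounds corresponds to about 1 gene.

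**Figure D1:**
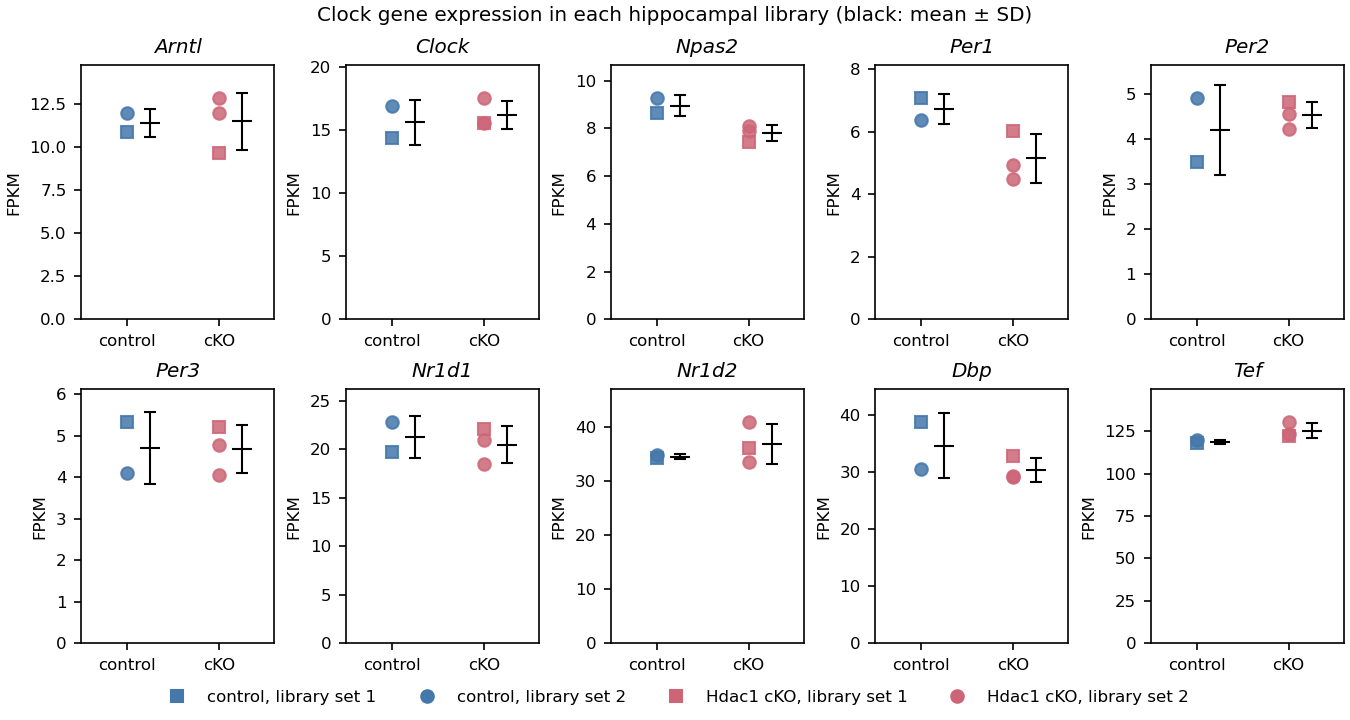
FPKM of each clock gene (vertical axis from 0) in the 2 control and 3 Hdac1 cKO libraries, with squares for library set 1, circles for set 2, and the mean ± SD of each group in black. The groups are apart for Npas2, Per1 and Tef and overlap for the other 7 genes.

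The levels differed between members by more than they differed between libraries. FPKM is scaled to transcript length, so levels can be compared between genes. *Tef* was the highest, with a mean of 122.5 FPKM over the 5 libraries, above 94.96% of all tested genes. *Nr1d2* (35.9 FPKM) and *Dbp* (32.0 FPKM) followed, and their ranges over the libraries overlapped. *Nr1d1* (20.8 FPKM), *Clock* (16.0 FPKM), *Arntl* (11.4 FPKM) and *Npas2* (8.27 FPKM) came next, each with a range apart from its neighbours. The Period genes were the lowest, with *Per1* at 5.78, *Per3* at 4.70 and *Per2* at 4.41 FPKM, and neighbours among them overlapped. The fold between the highest and the lowest library was 1.11 for *Tef* and 1.57 for *Per1*, with a median of 1.28 over the members and 1.32 over all tested genes. From the estimated depth and the longest annotated transcript, the lowest library held about 108 fragments of *Per1*, 127 of *Per2* and 147 of *Per3*, a counting error alone of 9.62%, 8.87% and 8.25%. For *Tef* it held about 2945 fragments (1.84%).

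*Arntl* encodes BMAL1, the common partner of the activator dimers. The gene is on chromosome 7, plus strand (120350979 to 120457636, mm9). *Arntl* measured 10.8 and 11.97 FPKM in control and 9.63, 12.8 and 11.98 FPKM in *Hdac1* cKO, so the lowest and the highest library both belonged to *Hdac1* cKO. The means were 11.4 ± 0.808 (SD, n = 2) and 11.5 ± 1.65 FPKM (SD, n = 3), for a log2 fold change of 0.00070 and a 95% interval from −0.32 to 0.32. Within the sets it differed by −0.15 and 0.04.

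*Clock*, on the minus strand of chromosome 5 (76639992 to 76733817), encodes the partner of BMAL1. *Clock* measured 14.3 and 16.9 FPKM in control and 15.6, 17.5 and 15.5 FPKM in *Hdac1* cKO, with overlapping groups (log2 fold change 0.05, 95% interval −0.22 to 0.32). The direction differed within the sets, with 0.11 in set 1 and −0.03 in set 2.

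*Npas2* encodes the paralog that can stand in for CLOCK in the forebrain, and it lies on the plus strand of chromosome 1 (39250576 to 39420079). *Npas2* measured 8.66 and 9.25 FPKM in control and 7.43, 7.89 and 8.12 FPKM in *Hdac1* cKO. Every *Hdac1* cKO library was below both controls, and the means were 8.96 ± 0.421 (SD, n = 2) and 7.81 ± 0.348 FPKM (SD, n = 3). The difference of −0.18 on the log2 scale (95% interval −0.43 to 0.08) did not pass the test (limma adjusted p = 0.955). It was −0.20 in set 1 and −0.19 in set 2, and 3 members (*Npas2*, *Per1* and *Dbp*) were lower within both sets, as were 29.1% of all tested genes. Among the activators *Npas2* was thus the only one with the same direction in both sets.

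*Per1* encodes a repressor of the loop that also responds rapidly to light, neuronal activity and glucocorticoids. The gene is on the plus strand of chromosome 11 (68908719 to 68923462). *Per1* measured 7.07 and 6.38 FPKM in control and 6.03, 4.50 and 4.93 FPKM in *Hdac1* cKO. The groups were apart, with means of 6.73 ± 0.485 (SD, n = 2) and 5.15 ± 0.789 FPKM (SD, n = 3), and *Hdac1* cKO held 76.6% of the control mean. On the log2 scale the change was −0.33 (SE 0.14, 95% interval −0.67 to −0.0039), and it failed correction over all genes (limma adjusted p = 0.955). It was −0.20 in set 1 and −0.37 in set 2, so *Per1* was lower in both. With 1 library left out, the log2 fold change of *Per1* stayed negative, at −0.27 without control 1 and −0.40 without control 2. It was −0.43, −0.26 and −0.31 without *Hdac1* cKO 1, 2 and 3. Its unadjusted limma p was under 0.05 without *Hdac1* cKO 1 and above 0.05 without *Hdac1* cKO 2 or 3. Such fits have fewer libraries, so a higher p in them does not show that a single library carried the difference. In bulk tissue, fewer cells of a type and less RNA per cell cannot be told apart.

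*Per2* and *Per3*, the other Period genes, had overlapping groups. *Per2* lies on the minus strand of chromosome 1 (93312561 to 93355907) and *Per3* on the minus strand of chromosome 4 (150377761 to 150418774). *Per2* measured 3.50 and 4.91 FPKM in control and 4.83, 4.24 and 4.57 FPKM in *Hdac1* cKO, so that the controls enclosed all *Hdac1* cKO libraries (log2 fold change 0.10, 95% interval −0.25 to 0.46). *Per3* measured 5.33 and 4.10 FPKM in control and 5.21, 4.78 and 4.07 FPKM in *Hdac1* cKO (−0.0045, 95% interval −0.36 to 0.35). Its high libraries were control 1 and *Hdac1* cKO 1, which form set 1.

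*Nr1d1* and *Nr1d2* encode the REV-ERB nuclear receptors, which repress *Arntl* by recruiting the NCoR corepressor with HDAC3. *Nr1d1* lies on the minus strand of chromosome 11 (98629246 to 98636647), and 263 of its 3124 exonic nt overlap *Thra* on the opposite strand, so reads there could come from either gene if strand was not used. *Nr1d1* measured 19.7 and 22.8 FPKM in control and 22.1, 18.5 and 20.9 FPKM in *Hdac1* cKO, with overlapping groups (log2 fold change −0.05, 95% interval −0.33 to 0.23). *Nr1d2* (minus strand of chromosome 14, 19036568 to 19071641) measured 34.2 and 34.8 FPKM in control and 36.2, 40.9 and 33.6 FPKM in *Hdac1* cKO (0.09, 95% interval −0.16 to 0.34). *Hdac1* cKO 2 was the lowest library for *Nr1d1* and the highest for *Nr1d2*, so the paralogs ran opposite in that library.

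*Dbp* and *Tef* encode PAR bZIP factors that carry the clock's timing to metabolic and detoxification genes. *Dbp* is on the plus strand of chromosome 7 (52960458 to 52965525), and 491 of its 2945 exonic nt overlap *Sphk2* on the opposite strand. *Dbp* measured 38.7 and 30.5 FPKM in control and 32.7, 29.1 and 29.2 FPKM in *Hdac1* cKO. Control 1 was the highest, while control 2 lay inside the *Hdac1* cKO range, so the groups overlapped. The means were 34.6 ± 5.76 (SD, n = 2) and 30.3 ± 2.05 FPKM (SD, n = 3), a log2 fold change of −0.18 (95% interval −0.46 to 0.11, limma adjusted p = 0.955). It was −0.23 in set 1 and −0.06 in set 2. Without control 1 it was −0.0098 and without control 2 it was −0.34 (adjusted p = 0.859), so its size rested on control 1.

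*Tef*, on the plus strand of chromosome 15 (81632851 to 81657291), shares 193 of its 7865 exonic nt with *Gm17597* on the opposite strand. *Tef* measured 117.7 and 119.5 FPKM in control and 121.9, 130.2 and 123.3 FPKM in *Hdac1* cKO. Every *Hdac1* cKO library lay above both controls, by a small margin, with means of 118.6 ± 1.24 (SD, n = 2) and 125.1 ± 4.44 FPKM (SD, n = 3). The difference of 0.08 on the log2 scale (95% interval −0.13 to 0.28) did not pass the test (limma adjusted p = 0.974), with 0.05 in set 1 and 0.08 in set 2. *Tef* and *Nr1d2* were the 2 members higher within both sets, as were 30.9% of all tested genes. *Tef* thus moved up where *Dbp*, its relative, had a negative estimate, and neither passed the test.

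**Figure D2:**
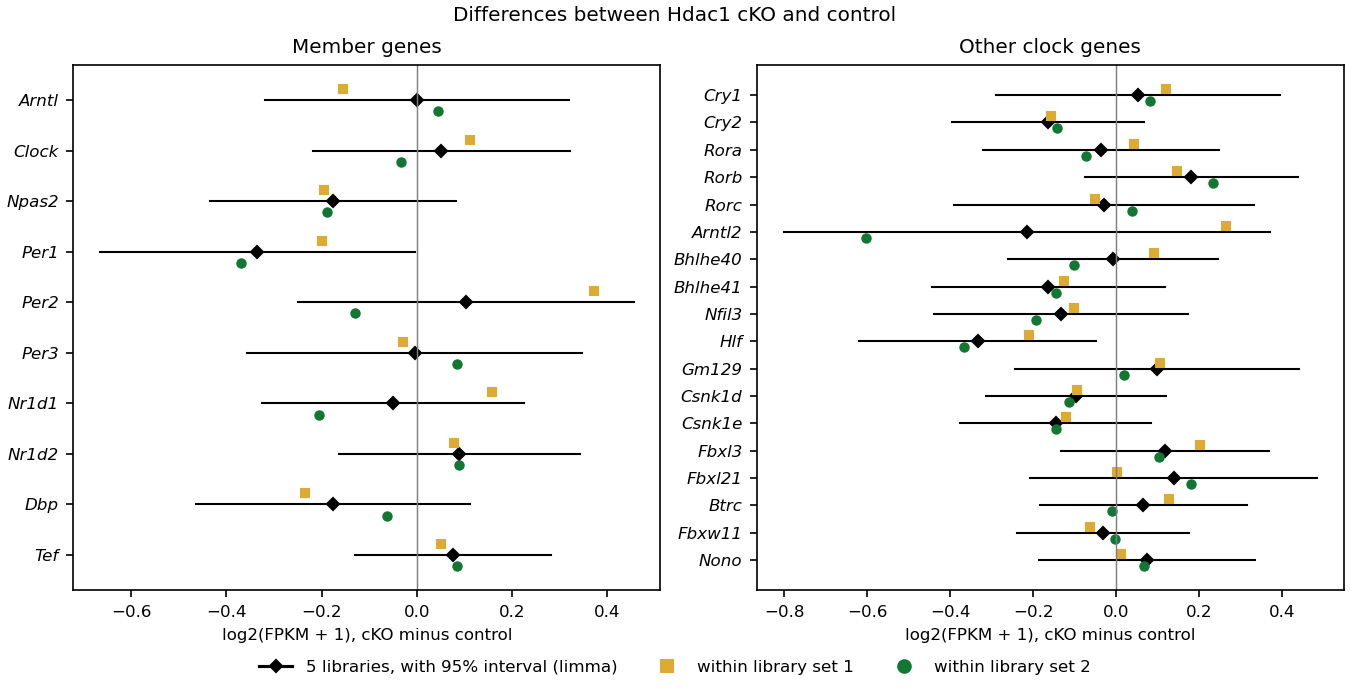
Log2(FPKM + 1) differences, Hdac1 cKO minus control, for the 10 members (left) and 18 other clock genes (right), as the estimate over 5 libraries with its 95% limma interval (black) and as the difference within library set 1 (yellow squares) and set 2 (green circles). Only the intervals of Per1 and Hlf leave out 0.

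The start sites of *Per1* and *Tef* were compared because these are the output genes whose groups did not overlap. RefSeq promoter windows were available for 9 members (all but *Per2*), 14 windows in all. The 250 bases before each start site were matched to the mm9 genome. The canonical E-box, CACGTG (a palindrome, read the same on either strand), was found before start sites of 2 members, *Per1* and *Tef*. These were 3 of the 14 windows, 2 of them of *Tef*, against 6.02% of all windows of that length. E-boxes of other letters, or outside these 250 bases, were not searched. Stretches around it are printed 5′ to 3′ on the gene's strand, with the E-box in capitals. The *Per1* stretch lies at chr11:68912260-68912315 (plus strand), with its E-box ending 161 bases before the start site. The *Tef* stretches lie at chr15:81632951-81633006 and chr15:81641681-81641736 (plus strand), before separate start sites, with the E-box ending 122 and 133 bases before them. All these stretches lie inside the annotated genes.
Per1 E-box: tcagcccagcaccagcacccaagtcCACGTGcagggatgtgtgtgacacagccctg
Tef E-box, upstream start: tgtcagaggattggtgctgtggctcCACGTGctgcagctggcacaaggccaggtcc
Tef E-box, downstream start: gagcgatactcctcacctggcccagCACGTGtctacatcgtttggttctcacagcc

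*Per1* and *Tef* thus share these letters near a start site. Neither gene passed an adjusted p of 0.05 between genotypes, and a relation of the letters to expression was not tested. The D-box, searched as TTANGTAA on both strands, was found in 2.06% of all windows and in 1 of the 14 windows, that of *Per3*, where it occurs 2 times on the gene's strand. These stretches, at chr4:150418947-150419004 and chr4:150418900-150418957 (minus strand), are shown because *Per3* was among the members that separated the library sets. The core of the REV-ERB and ROR element, AGGTCA on either strand, was found before start sites of *Clock*, *Nr1d2* and *Per1*, in 3 of the 14 windows, against 14.0% of all windows. The letters are a description of these windows, and binding was not measured here.
Per3 D-box, distal: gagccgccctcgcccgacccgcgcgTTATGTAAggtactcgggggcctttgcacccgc
Per3 D-box, proximal: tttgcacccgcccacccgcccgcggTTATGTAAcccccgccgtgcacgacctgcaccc

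The next comparison asks whether the 3 activators ran opposite to the 7 outputs. Over all 5 libraries both means had a negative difference between genotypes. Activators averaged 3.67 ± 0.103 (SD, n = 2) on the log2(FPKM + 1) scale in control libraries against 3.62 ± 0.103 (SD, n = 3) in *Hdac1* cKO, which differed by −0.04. Outputs averaged 4.21 ± 0.0132 (SD, n = 2) against 4.17 ± 0.0704 (SD, n = 3), also different by −0.04. Within the sets the activators differed by −0.08 and −0.06 and the outputs by 0.03 and −0.07, so the signs were opposite in set 1 and the same in set 2. The activator difference turned positive without control 2 (0.032, outputs −0.052) and without *Hdac1* cKO 1 (0.015, outputs −0.082), where the signs were opposite too. Outputs minus activators came to 0.548 ± 0.117 (SD, n = 2) and 0.547 ± 0.168 (SD, n = 3), and their difference ran from −0.097 to 0.081 when 1 library was left out, on either side of 0. Of the 21 pairs of an activator with an output, 11 had fold changes of opposite sign, which were 4 of 7 for *Arntl*, 4 of 7 for *Clock* and 3 of 7 for *Npas2*. This tally rests in part on signs of very small fold changes, such as *Arntl* (0.00070) and *Per3* (−0.0045), which turned under other processing. Since the members were chosen with earlier results of these data known, these means carry no p-value.

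Across libraries the means of activators and outputs did not order the libraries by genotype. Both separated the library sets, with activators lower in set 1 and outputs higher in set 1, the outputs by a small margin. The median of all tested genes separated the sets in the direction of the activators, so the activator order is not particular to the clock. This median deviated by −0.02 in control 1 and −0.03 in *Hdac1* cKO 1. In set 2 it deviated by 0.02 in control 2, 0.01 in *Hdac1* cKO 2 and 0.01 in *Hdac1* cKO 3. The activator mean deviated from its mean over the 5 libraries by −0.05 in control 1 and by −0.13 in *Hdac1* cKO 1, against 0.10 in control 2, 0.08 in *Hdac1* cKO 2 and 0.0035 in *Hdac1* cKO 3. The output mean deviated by 0.03 in control 1 and 0.06 in *Hdac1* cKO 1, against 0.02 in control 2, −0.04 in *Hdac1* cKO 2 and −0.07 in *Hdac1* cKO 3. Activators and outputs lay on opposite sides of their means in 4 of the 5 libraries, the exception being control 2. In *Hdac1* cKO 3 the activators were only 0.0035 from their mean, so the side there is not settled. Outputs minus activators was 0.630 in control 1 and 0.738 in *Hdac1* cKO 1, above 0.465 in control 2, 0.427 in *Hdac1* cKO 2 and 0.475 in *Hdac1* cKO 3. The sets stayed apart in this measure when each of the 10 members was left out in turn, so no single member carried the separation. This is no test of the separation, which was read from the same values. Single genes often separated the sets, with set 2 above for 26.1% of all tested genes and below for 14.0%. A scaling that multiplies all genes of a library alike hardly moves this difference within a library, so scalings are no check of it. Taken pair by pair, an activator and an output deviated to opposite sides in 61 of 105 combinations of pair and library (58.1%). The pairs share genes and libraries, and no other genes were counted in this way. These counts therefore do not show that activators and outputs ran opposite. With 5 libraries no correlation across samples was computed.

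**Figure D3:**
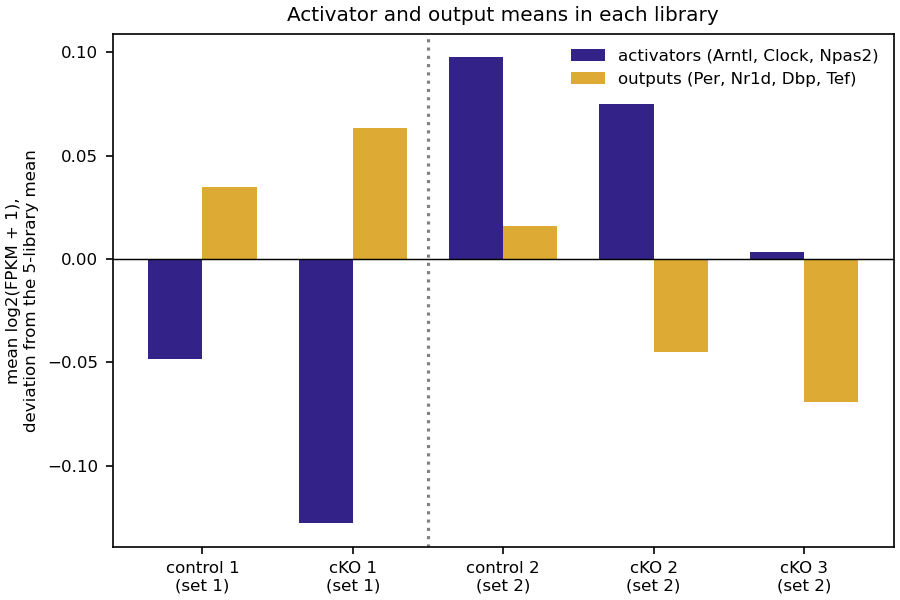
Mean log2(FPKM + 1) of the 3 activators and of the 7 outputs in each library, as the deviation from the mean over the 5 libraries, with set 1 left and set 2 right of the dotted line. The activators are below 0 in both libraries of set 1 and above 0 in the 3 of set 2, and the outputs are above 0 in set 1 and in control 2.

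Single members were then compared between the sets, with genotype in the model. This comparison was added after the values were seen. Sets differed for many genes, with 22.9% of all tested genes under an unadjusted p of 0.05 and 3.09% under an adjusted p of 0.05. Of the 10 members 2 were under the unadjusted p and 0 under the adjusted p by limma. *Dbp* was lower in set 2, at 38.7 and 32.7 FPKM in set 1 and 30.5, 29.1 and 29.2 FPKM in set 2, for a log2 difference of −0.23 (95% interval −0.41 to −0.06, adjusted p = 0.126). *Arntl* was higher in set 2, at 10.8 and 9.63 FPKM in set 1 and 11.97, 12.8 and 11.98 FPKM in set 2 (0.25, 95% interval 0.02 to 0.47, adjusted p = 0.187). *Per3* also separated the sets, with a log2 difference of −0.25 (adjusted p = 0.288). Sets did not overlap with set 2 above for 1 member, *Arntl* (26.1% of all tested genes), and with set 2 below for 2 members, *Dbp* and *Per3* (14.0% of all tested genes). *Clock* (0.14), *Npas2* (0.09), *Per2* (0.11), *Nr1d2* (0.03) and *Tef* (0.04) had positive estimates, and *Per1* (−0.23) and *Nr1d1* (−0.0071) negative ones. The median of all tested genes was 0.05. Whether the sets differ in the hour of collection, in handling or in quantification was not tested.

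**Figure D4:**
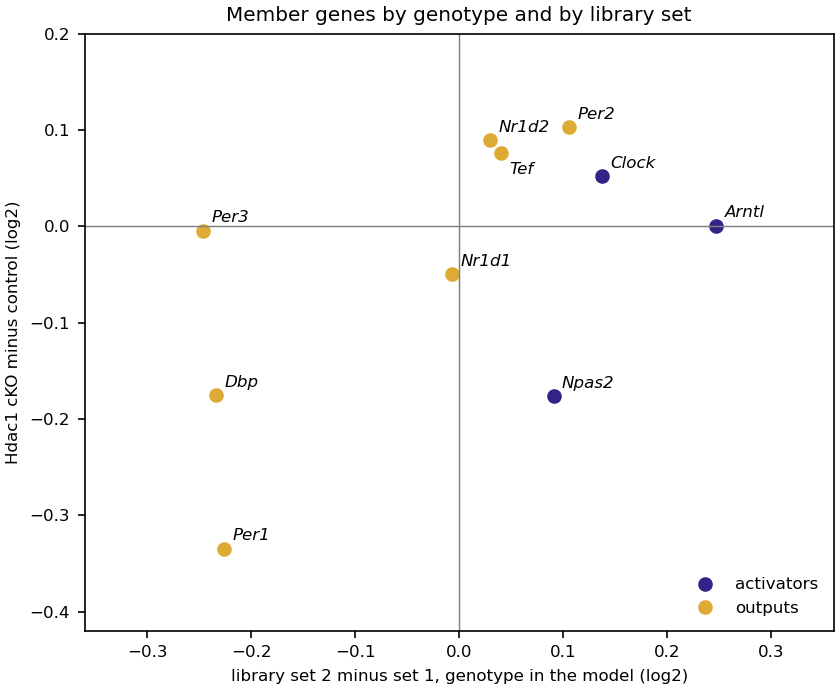
Each clock gene by its log2 difference between library sets (horizontal axis, set 2 minus set 1, genotype in the model) and between genotypes (vertical axis, Hdac1 cKO minus control). Activators are at or above 0.09 on the horizontal axis, while the outputs spread from −0.25 for Per3 to 0.11 for Per2.

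Other genes of the clock were given by a list of 19, of which 18 were tested (*Timeless* was below the filter). By limma 0 passed an adjusted p of 0.05 and 1 had an unadjusted p under 0.05 (4.36% of all tested genes did), *Hlf*, the remaining PAR bZIP gene. *Hlf* measured 19.9 and 18.2 FPKM in control and 17.1, 14.0 and 13.8 FPKM in *Hdac1* cKO. Every *Hdac1* cKO library was below both controls (log2 fold change −0.33, 95% interval −0.62 to −0.05, adjusted p = 0.955), with −0.21 in set 1 and −0.37 in set 2. With 1 library left out the log2 fold change of *Hlf* ran from −0.43 to −0.27. Its unadjusted limma p was above 0.05 without *Hdac1* cKO 2 (−0.29) and without *Hdac1* cKO 3 (−0.28), in fits with fewer libraries. The median log2 fold change of the 18 genes was −0.03, where 7 were above 0 and 11 below.

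Of the cryptochromes, which repress the dimer together with PERIOD proteins, *Cry2* measured 23.5 and 21.9 FPKM in control and 21.0, 20.1 and 19.4 FPKM in *Hdac1* cKO, with the groups apart (−0.16, adjusted p = 0.955). *Cry1* overlapped, at 6.06 and 4.95 against 6.67, 5.49 and 5.11 FPKM (0.05). Between the library sets *Cry1* was lower in set 2 (−0.27, limma adjusted p = 0.200). Of the 18 genes, 4 lay wholly lower in set 2 (14.0% of all tested genes) and 4 wholly higher (26.1%). *Rorb*, which encodes an activator acting on the REV-ERB element, lay above both controls in every *Hdac1* cKO library, at 8.94 and 8.03 against 10.01, 9.41 and 9.83 FPKM (0.18, adjusted p = 0.955). Its relative *Rora* overlapped (−0.04). The repressor genes *Nfil3* (−0.13), *Bhlhe40* (−0.0070) and *Bhlhe41* (−0.16) overlapped too, as did the BMAL1 repressor *Ciart*, listed under its older symbol *Gm129* (0.10). Groups were also apart for the casein kinase genes *Csnk1d* (−0.10) and *Csnk1e* (−0.15), whose products phosphorylate PERIOD proteins, and for *Fbxw11* (−0.03). In all, 5 of the 18 lay below both controls (9.41% of all tested genes did) and 1 above (11.0%).

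The profiles of *Dbp* and *Arntl* over the 5 libraries were compared with those of other genes, and the 5 nearest to each were not listed clock genes. Likeness was the root mean square difference of the centred log2(FPKM + 1) values, among 8813 genes whose mean reached 5 FPKM. For *Dbp* the nearest were *Ulk1*, *Nudt4*, *Caskin1*, *Pabpn1* and *Klf13*, with differences of 0.02 to 0.03. The nearest listed clock gene was *Bhlhe41* at rank 115 and the nearest member *Per1* at rank 950. For *Arntl* the nearest were *Cdk9*, *Nasp*, *Rhot1*, *Mpp6* and *Lpin2*, with differences of 0.01 to 0.02. The nearest listed clock gene was *Nono*, which encodes a PERIOD-binding protein, at rank 263, and the nearest member was *Clock* at rank 1851. *Dbp* came at rank 7566 for *Arntl*. *Per2* and *Per3* were below the minimum for this comparison.

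Lists of genes that share inputs or cells with the clock are given beside these results. An unadjusted limma p under 0.05 was found for 4.36% of all tested genes, which is the background for the counts of these lists. Of 4 further clock-controlled genes (*Usp2*, *Wee1*, *Nampt* and *Cirbp*) 0 had one, and the median log2 fold change was −0.05. Of 12 glucocorticoid responsive genes 10 were tested and 0 had an unadjusted p under 0.05 (median 0.03). Of 10 immediate early genes 9 were tested and 0 had one (median −0.18). In 8 of these 9 the fold change was below 0, as in 5896 of all 12740 tested genes, and 3 were lower within both sets. Their mean log2(FPKM + 1) overlapped, at 3.63 and 3.53 in control and 3.62, 3.47 and 3.18 in *Hdac1* cKO. Counts of 0 in lists this short say little about their genes. Both lists concern *Per1*, which responds to the same signals. The summed FPKM of the glucocorticoid list was 1761 to 1763 in set 1 and 1145 to 1249 in set 2, but most of it came from the metallothionein genes *Mt1* and *Mt2*. *Mt1* alone measured 1141 and 1098 FPKM in set 1 and 716.2, 796.7 and 785.7 FPKM in set 2. The mean log2(FPKM + 1) over the tested glucocorticoid genes overlapped, at 5.18 and 5.27 in set 1 and 5.14, 5.18 and 5.20 in set 2. The immediate early list summed to 180.3 to 189.7 FPKM in set 1 and 136.2 to 163.4 FPKM in set 2.

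Astrocyte markers summed to 4033 to 4093 FPKM in control and 4281 to 4389 FPKM in *Hdac1* cKO, with 6 of 10 genes above both controls (11.0% of all tested genes) and the other 4 (*Aldh1l1*, *Glul*, *Sox9* and *Aldoc*) at −0.02 to −0.04 on the log2 scale. Neuron markers summed to 1979 to 2165 and 1873 to 2045 FPKM, which overlapped, with 10 of 10 fold changes below 0 and 3 genes below both controls (9.41% of all tested genes). At an unadjusted limma p under 0.05, 2 of 10 astrocyte markers were higher and 2 of 10 neuron markers lower. The share of all tested genes was 4.36%. The count was 0 in the other cell type lists, and 0 in every one of them at an adjusted p of 0.05. Sums also overlapped for oligodendrocyte (1558 to 1817 against 1524 to 1979 FPKM), microglia (138.3 to 168.5 against 138.9 to 171.7 FPKM) and endothelial markers (74.6 to 79.9 against 63.9 to 86.0 FPKM), and none of these markers was at 0. Choroid plexus markers, of which 3 of 6 were tested, varied most, from 6.21 to 165.9 FPKM in control and from 24.96 to 600.3 FPKM in *Hdac1* cKO, with *Ttr* at 1.33 FPKM in control 2 and 589.2 FPKM in *Hdac1* cKO 2. *Otx2* was listed at 0 in control 2 and *Folr1* in *Hdac1* cKO 3. The part of these cells in the values of *Per1*, *Npas2*, *Tef* or *Hlf* was not tested.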

How the data were processed

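Libraries were made by the authors from total RNA of the hippocampus with an Illumina TruSeq Total RNA kit. Collapsed reads were aligned with Tophat2 and quantified with Cufflinks 2.0.0 on UCSC mm9. The deposited values are FPKM, one file per library, and whether strand was used is not given in the sources used here. The young mice were males by the study's methods. The study gives 2 control and 3 *Hdac1* cKO mice, the same numbers as the libraries, so p-values measure the spread between these mice and the handling of their libraries. Groups came from the sample titles.

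Genes were tested with limma 3.58.1 (R 4.3.3; variance trend; genotype as the only term; two-sided) on log2(FPKM + 1), which understates changes of low genes, with Benjamini-Hochberg adjustment over 12740 genes. The script was tested on simulated data. The members and gene lists were chosen with earlier results of these data known. Named genes were the members, *Hdac1*, 9 other clock genes and any of that list under p 0.05, and the 5 profiles nearest to *Dbp* and to *Arntl* (no Mir, Snor, Scarna or predicted symbols). *Csnk1d*, *Csnk1e*, *Fbxw11*, *Timeless*, *Aldh1l1*, *Glul*, *Sox9*, *Aldoc*, *Mt1*, *Mt2*, *Ttr*, *Otx2* and *Folr1* were named after their values were seen.

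Library sets were read from genes with a mean under 0.3 FPKM, as pairs of libraries with over 10% of log2 ratios inside one window of 0.05. Depth was estimated from genes with a single transcript of at least 1000 nt, by taking the most common FPKM times length as 1 fragment, and it is approximate. Coordinates are 1-based (GENCODE vM1, NCBIM37, the build of mm9). Promoter sequences are from RefSeq (GRCm38.p6), placed in NCBIM37 by exact match. BLAST 2.17.0 found no copies of the members at 95% identity over 200 nt beyond the stretches shared by *Nr1d1* with *Thra* and *Dbp* with *Sphk2*. Alternatives were a pseudocount of 0.1, other filters and scalings, no variance trend, blocks for replicate number and library set, and leaving out each library.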

Additional observations from a re-analysis of the deposited data

How the results depend on the processing

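The count of members under an unadjusted p of 0.05 was 1, and the member was *Npas2* instead of *Per1* without a filter on FPKM and *Dbp* without control 2. It was 0 with a minimum mean of 5 FPKM, with median-ratio size factors and with quantile normalization, and 0 to 1 when 1 library was left out; the adjusted p of *Per1* ranged upward from 0.436 over 14 alternatives, and its fold change stayed negative in each of them. Leaving out 1 library gave 3 to 7 of the 10 members with groups apart, beside 29.9% to 54.6% of all tested genes, with the highest of both without control 2. Genes past the study's threshold numbered 142 with a pseudocount of 0.1, 43 with a minimum mean of 5 FPKM and 133 with the replicate block, and 92 to 231 with 1 library left out. The difference of the output mean was −0.11 after rescaling to a common total and 0.029 within set 1.

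Directions near 0 turned. *Arntl* was at −0.014 with median-ratio size factors, −0.063 after rescaling to a common total, −0.033 with the replicate block and −0.040 with library set as a block, and from −0.077 to 0.11 with 1 library left out. *Clock* was at −0.011 after rescaling to a common total and from −0.057 to 0.16 with 1 library left out. *Per3* was at 0.0031 with quantile normalization, 0.076 with the replicate block and 0.036 with library set as a block, and from −0.16 to 0.15 with 1 library left out. *Per2* ran from −0.093 to 0.30 and *Nr1d1* from −0.15 to 0.051 with 1 library left out. *Npas2*, *Per1*, *Nr1d2*, *Dbp*, *Tef* and *Hlf* kept their direction in all 14 alternatives. The cause of these changes was not tested.

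Replicate numbers in the titles are shared between the groups, but nothing says that they pair animals. Deviations from the group means correlated across 12740 genes, which are not independent. The r was 0.402 for the libraries numbered 1 and 0.269 for those numbered 2. Control 2 and *Hdac1* cKO 3, which share no number, gave 0.151. The deviations of the 2 controls mirror each other, so these values are not separate evidence of pairing. Each of these pairs lies inside a library set. The replicate block left 1 member, *Per1*, under an unadjusted p of 0.05 and 0 under an adjusted p.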
